A study of Mus musculus with 23 samples.

Results

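The Mef2 family of transcription factors was followed in mouse nucleus accumbens, a striatal region that takes part in reward. Its members are Mef2a, Mef2c and Mef2d, read through every bead-array probe annotated to them whose detection p fell below 0.01 on 5 or more arrays. The annotation assigns 6 probes to these genes, 5 to Mef2c and 1 to Mef2d, and no probe to Mef2a, which is not analysed here. Of the 6 probes 4 passed the rule, out of 18509 passing probes among 45281 in all, and all 4 are of Mef2c, so 1 of the 3 genes is measured, among 10138 genes with a passing probe. The 4 probes read the same gene in the same RNA samples and are not independent measurements.

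MEF2 factors bind DNA through a MADS box next to a MEF2 domain and switch genes on or off with neuronal activity. Calcium entry, the phosphatase calcineurin and p38 and ERK5 MAP kinases raise their activity, and class IIa histone deacetylases bound to them hold it down. Mef2c is strongly expressed in excitatory neurons of the cortex, and MEF2 factors have been linked to the number of synapses of neurons. In the developing striatum of mice Foxp2, a forkhead repressor, has been reported to lower Mef2c, and in the accumbens MEF2 activity has been linked to changes of dendritic spines after cocaine.

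The animals were C57BL6 mice of both sexes, killed 1 h after an intraperitoneal injection. The groups were S321X/+ mice, heterozygous for a premature stop codon in Foxp2, given cocaine at 15 mg/kg (6 arrays) or saline (5 arrays), and wild-type littermates given cocaine (6 arrays) or saline (6 arrays). The S321X allele is in every cell of the heterozygotes, and the labels give no age. RNA of a tissue punch of each animal was hybridised to 1 Illumina MouseWG-6 v2 array, so each level is an average over all cells of the punch, in which more cells of a type and more RNA per cell cannot be told apart. Levels are given as log2 intensity after background correction and quantile normalization, and differences were tested with limma across all 18509 probes, with p-values adjusted by Benjamini-Hochberg over all of them.

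Between 16102 and 17933 probes were detected per array, and the number of arrays limits the precision. Foxp2, the mutated gene, gave heterozygous minus wild-type differences on its 3 detected probes of -0.51 ± 0.19, -0.66 ± 0.20 and -0.63 ± 0.22 (log2, SE) averaged over injections, none of which passed (limma adjusted p = 1, 0.785 and 0.995). After saline the heterozygous arrays, 5 in number, were each lower than every wild-type array on 2 of these probes, which 0.119% of all probes showed. Heterozygous cocaine arrays 9, 16 and 19 stood apart from all others on the first principal component, at 27.3 to 31.7, with the next array at 18.8, and the cocaine, interaction and genotype results of Mef2c are given with and without them. After cocaine Foxp2 itself differed by -0.65 ± 0.19 on ILMN_3140000 averaged over genotypes, which did not pass (limma adjusted p = 0.052).

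Mef2c (GRCm38.p6 chromosome 13, 83504017 to 83667079) has 3 annotated start windows in RefSeq, each covering 250 bases before to 50 bases after a start. They are shown because Foxp2 is a reported regulator of the gene and the probes do not tell which start the RNA came from. All 3 lie on the plus strand. Capitals mark matches to any of 4 motifs searched on both strands. These are the forkhead core TAAACA, a loose AP-1 form TGANTCA (N is any base) and the cyclic AMP response element TGACGTCA. The last is the MEF2 form, CTA and TAG with 4 bases between them.
Start window 1, chr13:83503784-83504083: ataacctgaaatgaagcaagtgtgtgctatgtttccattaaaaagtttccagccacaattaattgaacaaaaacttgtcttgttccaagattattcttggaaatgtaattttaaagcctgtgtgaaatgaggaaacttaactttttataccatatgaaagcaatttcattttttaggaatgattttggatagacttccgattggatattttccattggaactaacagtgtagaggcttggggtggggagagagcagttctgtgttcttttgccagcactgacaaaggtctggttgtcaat
Start window 2, chr13:83523406-83523705: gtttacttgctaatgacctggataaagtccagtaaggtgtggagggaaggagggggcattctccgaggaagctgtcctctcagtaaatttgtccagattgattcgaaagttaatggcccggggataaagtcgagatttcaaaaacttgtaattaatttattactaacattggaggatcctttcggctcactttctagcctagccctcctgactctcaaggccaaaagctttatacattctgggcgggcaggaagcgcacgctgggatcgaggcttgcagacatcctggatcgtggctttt
Start window 3, chr13:83573357-83573656: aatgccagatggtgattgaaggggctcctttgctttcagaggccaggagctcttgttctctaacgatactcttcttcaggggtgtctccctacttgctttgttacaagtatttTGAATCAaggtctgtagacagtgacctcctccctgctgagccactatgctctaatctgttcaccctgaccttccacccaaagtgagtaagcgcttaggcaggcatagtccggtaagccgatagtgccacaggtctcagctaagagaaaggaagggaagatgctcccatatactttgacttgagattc
The 3 windows hold 1 match between them, to the loose AP-1 form, at bases 114 to 120 of window 3. Its middle base is A, and a match to this form need not be an AP-1 site. Among 32851 RefSeq start windows of this length the forkhead core was found in 13.4% and the loose AP-1 form in 7.81%. The cyclic AMP response element was found in 1.79% and the MEF2 form in 3.69%. These matches are of letters only, and binding was not measured.

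Mef2c was higher after cocaine. Its brightest probe, ILMN_2732465, was detected on all 23 arrays. In heterozygotes given cocaine its log2 intensity ran from 12.63 to 13.15 with a median of 12.98. In heterozygotes given saline it was 12.24, 12.50, 12.17, 11.97 and 12.35. Every heterozygous cocaine array thus lay above every heterozygous saline array, which 1.18% of all probes tested also showed. In wild type given cocaine it ran from 12.37 to 12.99 with a median of 12.59, and in wild type given saline from 12.02 to 12.54 with a median of 12.44. There the groups overlapped, and 3 of 6 cocaine arrays lay above all saline arrays.

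Averaged over the genotypes ILMN_2732465 rose 1.4-fold after cocaine (log2 difference 0.49 ± 0.09, SE; 95% interval 0.30 to 0.67; limma adjusted p = 0.00373). Without arrays 9, 16 and 19 the difference was 0.45 ± 0.10 and did not pass (limma adjusted p = 0.0684). In the comparison of all 23 arrays 5 of 8 measured markers of excitatory cortical neurons rose and 8 of 12 measured markers of striatal projection neurons fell. Of all probes 2.65% were called higher and 1.22% lower. The score of a list is the mean log2 deviation over its measured markers. With the excitatory or striatal score as a covariate the Mef2c difference was 0.29 or 0.26 and did not pass (limma adjusted p = 1 in each). Few probes of any gene passed there, 10 with the excitatory and 3 with the striatal score, in place of 716. Of the 12 cocaine arrays 9 lay above all 11 saline arrays and 12 lay above the saline median. No overlap at all between the 12 cocaine and 11 saline arrays was seen with cocaine higher for 0.0702% of the probes tested and with cocaine lower for 0.00540%, and for none of the 4 Mef2c probes.

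The other Mef2c probes gave differences of the same sign with a wider spread. ILMN_2887992, detected on all 23 arrays, averaged 11.35 ± 0.29 and 10.76 ± 0.33 in heterozygotes after cocaine and saline, and 11.23 ± 0.36 and 10.87 ± 0.30 in wild type (log2 intensity, SD). It rose by 0.47 ± 0.13 (limma adjusted p = 0.0374). ILMN_1214950, detected on 22 arrays, averaged 7.74 ± 0.44 and 6.75 ± 0.45 in heterozygotes and 7.56 ± 0.47 and 7.15 ± 0.35 in wild type, and rose by 0.70 ± 0.17 (limma adjusted p = 0.0206). The array on which it was not detected was heterozygous saline array 18. ILMN_1220270, whose annotation cites another transcript than the rest, was detected on 17 arrays. It averaged 6.77 ± 0.38 and 6.23 ± 0.43 in heterozygotes and 6.65 ± 0.49 and 6.56 ± 0.48 in wild type, a difference of 0.31 ± 0.17 that did not pass (limma adjusted p = 0.37). So 3 of the 4 probes were called higher and 0 lower, where 3.87% of the 18509 probes tested were called, 2.65% higher and 1.22% lower, and the median over the 4 was 0.48 beside -0.01 over all probes. ILMN_2887992 lost its call without any 1 of arrays 1, 2, 5, 7, 9, 12, 13, 14, 16, 18 and 24, with values of 0.42 to 0.52 over the 23 fits, while ILMN_2732465 and ILMN_1214950 kept theirs in all 23.

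**Figure D1:**
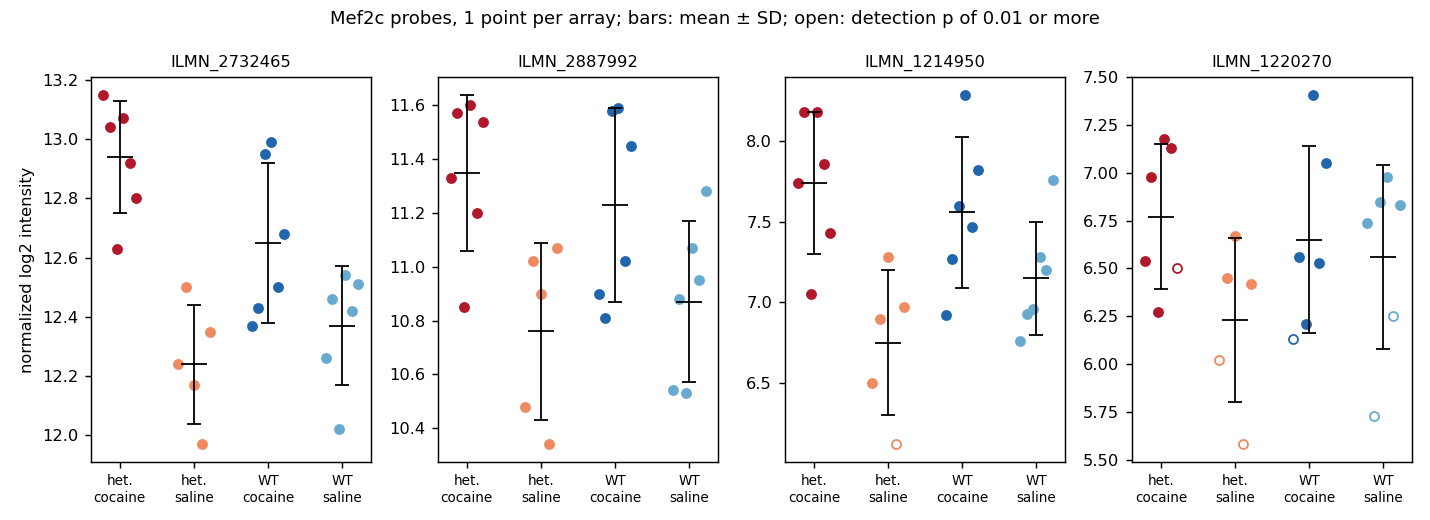
Normalized log2 intensity (vertical axis) of the 4 detected Mef2c probes, 1 point per array in 4 groups, with the mean and SD of each group as bars; open points are arrays on which the probe was not detected. On ILMN_2732465 the heterozygous cocaine arrays lie at 12.63 to 13.15, above all heterozygous saline arrays, while the wild-type groups overlap.

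The 4 probes varied together across arrays, which they share. Pairs of ILMN_2732465, ILMN_2887992 and ILMN_1214950 correlated with r between 0.72 and 0.83 over 23 arrays after the mean of each group was subtracted. ILMN_1220270 correlated with ILMN_1214950 at r = 0.76, with ILMN_2887992 at 0.46 and with ILMN_2732465 at 0.35. The fifth Mef2c probe, ILMN_2520812, was detected on 0 arrays. The Mef2d probe ILMN_2714918 was detected on 4 arrays, 1 short of the rule. These were 1 heterozygous cocaine, 2 heterozygous saline and 1 wild-type saline array, and its log2 intensity ran from 5.56 to 6.49 after cocaine and from 5.01 to 6.61 after saline, with no test. Mef2b, the remaining gene of the family and no member here, had 1 probe detected on all 23 arrays, ILMN_1236577. It averaged 9.51 ± 0.13 and 9.55 ± 0.17 in heterozygotes after cocaine and saline and 9.52 ± 0.14 and 9.48 ± 0.14 in wild type, and the cocaine difference of -0.00 ± 0.06 had a 95% interval of -0.13 to 0.13.

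In heterozygotes alone ILMN_2732465 rose 1.62-fold after cocaine (0.69 ± 0.13; 95% interval 0.42 to 0.96; limma adjusted p = 0.00712) and ILMN_1214950 rose 1.98-fold (0.99 ± 0.24; adjusted p = 0.0329). The values of ILMN_2887992 (0.59 ± 0.18; adjusted p = 0.0898) and ILMN_1220270 (0.54 ± 0.25; adjusted p = 0.311) did not pass. Thus 2 of 4 probes were called higher, beside 1.53% of all probes called higher and 2.22% called in either direction. Without arrays 9, 16 and 19 neither call was kept, at 0.62 for ILMN_2732465 and 0.65 for ILMN_1214950 (limma adjusted p = 0.359 and 0.774), with 0.48 for ILMN_2887992 and 0.20 for ILMN_1220270. Neither was kept with the excitatory score (0.42 and 0.54) or the striatal score (0.38 and 0.24) as a covariate, where 0 of all probes were called. The 411 probes behind the share were 95 without array 14 and 811 without array 11, the lowest and highest over the 23 fits, and 1 without arrays 9, 16 and 19. ILMN_1214950 lost this call without any 1 of arrays 1, 9, 16, 18 and 19, with values of 0.83 to 1.13 over the 23 fits, and in a fit to the 2 heterozygous groups alone (limma adjusted p = 0.0871).

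In wild type alone 0 of the 4 probes were called by limma, where 0.0756% of all probes were, and 1 of them had an unadjusted p under 0.05, as had 1561 of the 18509 probes. ILMN_2732465 differed by 0.28 ± 0.12 between cocaine and saline (95% interval 0.03 to 0.54; adjusted p = 0.556), ILMN_2887992 by 0.35 ± 0.17, ILMN_1214950 by 0.41 ± 0.23 and ILMN_1220270 by 0.09 ± 0.24.

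Whether the response to cocaine differed with genotype was tested as an interaction. The heterozygous response of ILMN_2732465 exceeded that of wild type by 0.41 ± 0.18 (95% interval 0.04 to 0.78), which did not pass over all probes (limma adjusted p = 0.927). The other probes gave 0.24 ± 0.25, 0.58 ± 0.33 and 0.45 ± 0.35. All 4 differences were positive, 0 of 4 were called beside 0% of all probes, and 1 of 4 had an unadjusted p under 0.05, as had 962 of the 18509 probes. Without arrays 9, 16 and 19 the 4 values, in the same order, were 0.33 ± 0.21, 0.13 ± 0.29, 0.24 ± 0.36 and 0.12 ± 0.38.

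The comparison of genotypes bears on Mef2c as a reported target of Foxp2. Averaged over injections ILMN_2732465 differed by 0.08 ± 0.09 between heterozygotes and wild type (log2, SE; 95% interval -0.11 to 0.27), which spans 0.929-fold to 1.2-fold. The other probes gave 0.01 ± 0.13, -0.11 ± 0.17 and -0.11 ± 0.17, so their signs did not all run one way. The 95% intervals of the 4 probes lay between -0.47 and 0.27. After saline the 4 differences were all negative, at -0.12 ± 0.13, -0.11 ± 0.18, -0.40 ± 0.24 and -0.33 ± 0.25. After cocaine they were all positive, at 0.28 ± 0.12, 0.12 ± 0.17, 0.18 ± 0.23 and 0.12 ± 0.24. That common sign was lost without arrays 9, 16 and 19, where the 4 values were 0.21, 0.02, -0.16 and -0.21, and with the striatal score, where they were 0.09, -0.11, -0.28 and -0.29. Averaged over injections they were 0.04, -0.05, -0.28 and -0.27 without the 3 arrays. On all arrays after cocaine 3 of 6 heterozygous arrays lay above every wild-type array on ILMN_2732465. In these 3 comparisons limma called 0 of the 4 probes and 0 of all 18509 (0%). At an unadjusted p under 0.05 the counts were 0 of 4 averaged over injections, 0 of 4 after saline and 1 of 4 after cocaine, beside 815, 785 and 1126 of all probes.

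**Figure D2:**
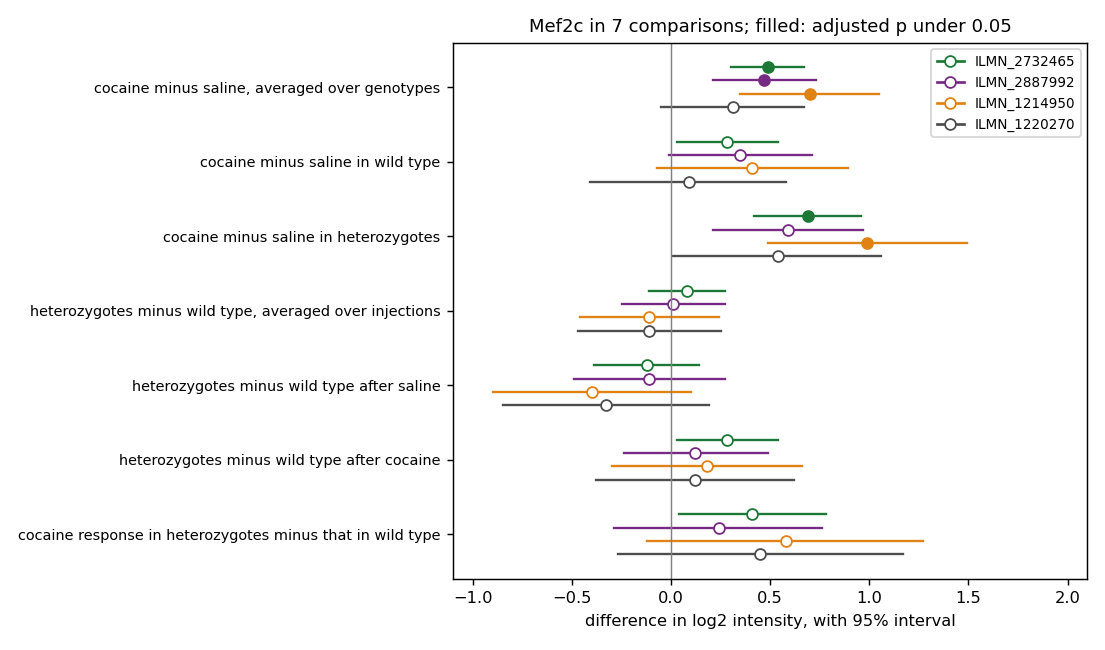
Differences in log2 intensity (horizontal axis) of the 4 Mef2c probes in 7 comparisons, with 95% intervals; filled points passed an adjusted p of 0.05. Calls are found only for cocaine averaged over genotypes (3 probes) and for cocaine in heterozygotes (2 probes), and the intervals for heterozygotes minus wild type averaged over injections all include 0.

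Several markers of cortical excitatory neurons, in which Mef2c is strongly expressed, rose after cocaine, as Mef2c did. The excitatory list has 10 genes, of which 8 were measured and 5 rose after cocaine, namely Neurod1, Neurod2, Slc17a7, Slc17a6 and Tbr1, with a list median of 0.84, where 2.65% of all probes were called higher. In wild type alone 0 of the 8 were called (median 0.46), where 0.0756% of all probes were. In heterozygotes 4 were called, all higher, where 1.53% of all probes were called higher. In the interaction 0 of the 8 were called, beside 0% of all probes. The transcription factor genes Neurod1 and Neurod2 rose by 1.06 ± 0.20 and 1.18 ± 0.23 (limma adjusted p = 0.00477 and 0.00593). The summed linear intensity of the 8 probes ran from 5605 to 13535 in heterozygotes after cocaine and from 2635 to 6576 after saline. In wild type it ran from 4979 to 9795 after cocaine and from 3678 to 6508 after saline. None of the 8 markers was undetected throughout, since each had passed the detection rule.

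Markers of striatal projection neurons moved the other way. Of 15 listed genes 12 were measured, 8 fell and 0 rose after cocaine, with a list median of -0.41, where 1.22% of all probes were called lower. In wild type alone 0 of the 12 were called (median -0.25), where 0.0756% of all probes were. In heterozygotes 6 were called, all lower, where 0.686% of all probes were called lower. In the interaction 0 of the 12 were called, beside 0% of all probes. The 8 that fell averaged over genotypes included the dopamine receptor genes Drd1 (-0.45 ± 0.07) and Drd2 (-0.47 ± 0.13). The summed intensity ran from 61656 to 97575 in heterozygotes after cocaine and from 96746 to 113775 in heterozygotes after saline. It ran from 83774 to 107771 in wild type after cocaine and from 105356 to 114589 in wild type after saline. Mef2c is also known from microglia and endothelial cells. Of 10 measured microglia markers and 9 measured endothelial markers 0 were called by limma, with list medians of -0.02 and 0.00, and likewise 0 of 7 oligodendrocyte and 0 of 7 astrocyte markers (0.04 and 0.01). Of the 4 measured FOXP family genes 0 were called, with Foxp2 at -0.65 ± 0.19, Foxp1 at -0.40 ± 0.14, Foxp3 at 0.05 ± 0.06 and Foxp4 at 0.11 ± 0.07. Beside these counts of 0, 3.87% of all probes were called in either direction. Of 7 measured interneuron markers 2 rose, the peptide genes Vip (1.13 ± 0.22) and Npy (0.26 ± 0.07), where 2.65% of all probes were called higher.

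Without arrays 9, 16 and 19 the cocaine difference of ILMN_2732465 averaged over genotypes was 0.45 ± 0.10 and no longer passed (limma adjusted p = 0.0684), in a fit where 71 probes were called in place of 716. In the same fit ILMN_2887992 gave 0.42 ± 0.14, ILMN_1214950 0.53 ± 0.18 and ILMN_1220270 0.15 ± 0.19, and none passed. With the excitatory score as a covariate ILMN_2732465 differed by 0.29 ± 0.11 (limma adjusted p = 1; unadjusted p = 0.0143). With the striatal score it differed by 0.26 ± 0.12 (adjusted p = 1; unadjusted p = 0.0417), and ILMN_1220270 changed sign (-0.16 ± 0.23). The excitatory fit called 10 probes of any gene and the striatal fit 3. The part of the marker scores in the Mef2c difference was not tested beyond these fits. Arrays 9, 16 and 19 had the highest excitatory scores (0.91 to 1.06) and the lowest striatal scores (-0.71 to -0.58) of all arrays. Leaving them out and adding a score are therefore not separate checks. Arrays were also split into blocks of 6 consecutive array numbers, since the raw columns carry a number but no batch. Within the blocks, with the genotypes pooled, the cocaine difference of ILMN_2732465 was 0.39, 0.74, 0.76 and 0.30, so it was positive in each. The 0.74 sets 4 cocaine arrays of both genotypes against 1 wild-type saline array, so it mixes genotype with injection. With the blocks as a term the cocaine difference averaged over genotypes was 0.54 ± 0.10.

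**Figure D3:**
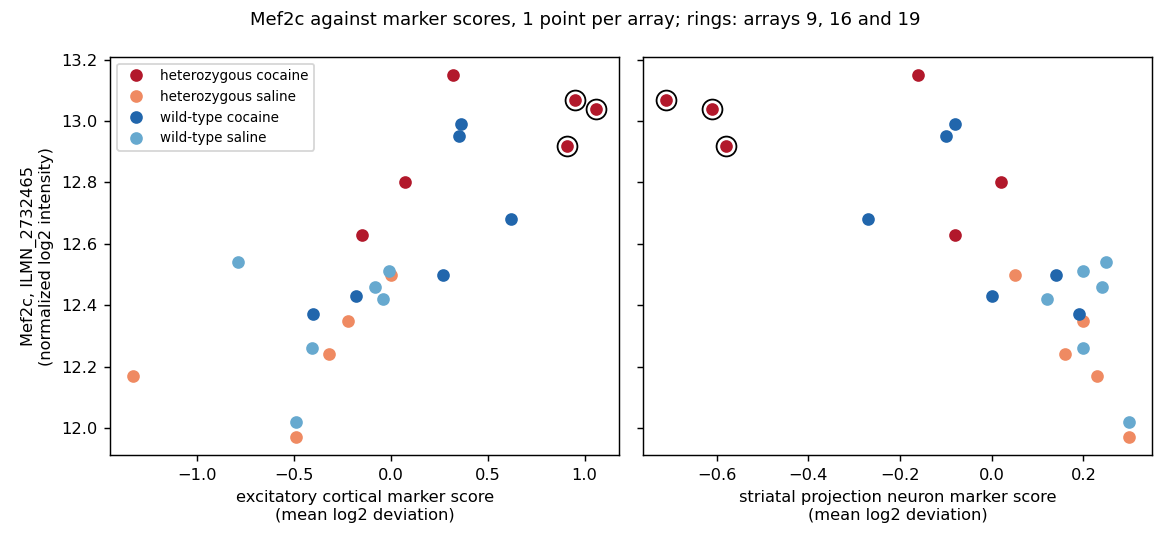
Log2 intensity of Mef2c probe ILMN_2732465 (vertical axis) against the excitatory cortical marker score (left) and the striatal projection neuron marker score (right), both as mean log2 deviations, 1 point per array; rings mark heterozygous cocaine arrays 9, 16 and 19. Heterozygous cocaine array 3 has the highest Mef2c level, 13.15, and is not among the ringed arrays.

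Within an injection the relation of Mef2c to the excitatory score was tested over arrays, leaving out arrays 9, 16 and 19, among 4 relations computed. All 4 pooled the genotypes, with no genotype term. Over the 11 saline arrays Pearson's r was 0.43 (two-sided permutation p = 0.188, adjusted 0.251) and Spearman's rho 0.51 (permutation p = 0.108, adjusted 0.179). It was r = 0.95 without saline arrays 14 and 15, the 2 farthest from the median score. Over 9 cocaine arrays r was 0.62 (exact permutation p = 0.0758, adjusted 0.251) and rho 0.72 (exact p = 0.0369, adjusted 0.147), and r was 0.23 without the 2 farthest arrays, 4 and 10, on which the relation rests. On Foxp2 probe ILMN_3140000 the heterozygous saline arrays ran from 8.42 to 8.82 and the wild-type saline arrays from 8.94 to 9.27. Its relation to Mef2c after saline therefore cannot be told apart from a difference of genotype. Between Mef2c and this Foxp2 probe, r was 0.23 (permutation p = 0.492, adjusted 0.492) and rho 0.44 (p = 0.179 by permutation, adjusted 0.179) over the saline arrays. Over the cocaine arrays r was -0.49 (exact p = 0.176, adjusted 0.251) and rho -0.52 (exact p = 0.162, adjusted 0.179), and without the 2 arrays with the most distant Foxp2 levels r was 0.64 after saline and -0.67 after cocaine. None of the 4 relations passed after adjustment, and the number blocks hold too few arrays of an injection for a value within each.

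The genes whose levels followed ILMN_2732465 most closely were Tafa1, Tnnc1, Stard8, C130074G19Rik and Sncb. Their Pearson correlations with it were 0.80, 0.78, 0.77, 0.75 and 0.75 over 23 arrays after the group means were subtracted, among 10137 genes with a range of -0.76 to 0.80 and a median of -0.03. Every gene was read in the same punches, so the values share the tissue sampled. Tafa1, which encodes a secreted protein, rose after cocaine by 1.45 ± 0.19 (limma adjusted p = 1.5e-04). Sncb encodes beta-synuclein, a presynaptic protein, and rose after cocaine by 0.36 ± 0.10 (limma adjusted p = 0.0469). Tnnc1, a troponin C gene, rose by 0.69 ± 0.18 (limma adjusted p = 0.0312). Of the 8 measured excitatory markers Neurod1 was closest, at r = 0.75 and rank 6, and Slc17a7, the cortical vesicular glutamate transporter gene, stood at 0.43. The lowest were Fezf2 at 0.27 and Neurod6 at 0.16.

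Among the regulators of MEF2 factors Ppp3cc, Mapk11, Camk2d and Camk1 were called after cocaine, all higher, where 2.65% of all probes were called higher and 1.22% lower. Of 3 measured class IIa histone deacetylase genes, whose proteins repress MEF2 targets, 0 were called (Hdac4, Hdac5 and Hdac9; median 0.12), and Hdac9 differed by 0.35 ± 0.11 (limma adjusted p = 0.0659). Of 6 measured genes of calcineurin and its inhibitors 1 rose, Ppp3cc, a catalytic subunit gene (0.35 ± 0.08; adjusted p = 0.0147), beside a list median of -0.05. Of 14 measured kinase genes 3 rose and 0 fell, with a median of 0.03. These were Mapk11, which encodes p38 beta (0.76 ± 0.11; adjusted p = 3.2e-04), Camk2d, a calcium/calmodulin-dependent kinase II gene (0.43 ± 0.11; adjusted p = 0.0269), and Camk1 (0.28 ± 0.07; adjusted p = 0.0282). The p38 alpha gene Mapk14 differed by 0.03 ± 0.06. Of 4 measured coactivator genes (Ep300, Crebbp, Kat2b and Carm1) 0 were called, with a median of -0.02. Without arrays 9, 16 and 19 Mapk11 still passed (0.65; adjusted p = 0.00866), and Ppp3cc (0.31; 0.172), Camk2d (0.43; 0.139) and Camk1 (0.25; 0.241) did not. With the excitatory score none of these 4 passed, Mapk11 included (0.49; adjusted p = 0.376), in a fit where 10 of all probes were called.

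Of 12 genes reported as MEF2 targets in neurons 10 were measured, and 3 rose and 0 fell after cocaine, where 2.65% of all probes were called higher and 1.22% lower, with a median of 0.10 over the list beside -0.01 over all probes. These were Bdnf, a neurotrophin gene (1.45 ± 0.23; limma adjusted p = 0.00123), Arc, an effector of AMPA receptor endocytosis (1.17 ± 0.12; 8.5e-06), and Egr1, a zinc-finger immediate-early factor (0.45 ± 0.06; 1.1e-04). All 3 are also targets of other activity-regulated factors. The remaining 7 did not pass, among them the synaptic scaffold gene Homer1 (0.01 ± 0.07), the kinase gene Sgk1 (-0.11 ± 0.08) and the protocadherin genes Pcdh10 (0.04 ± 0.08) and Pcdh17 (-0.10 ± 0.07). Without arrays 9, 16 and 19 Arc, Bdnf and Egr1 passed. When the excitatory score was added to the model Arc passed (1.04; adjusted p = 0.0142) while Egr1 (0.37; 0.0667) and Bdnf (0.50; 0.432) did not. That fit called 10 of all probes. In wild type alone 2 of the 10 targets rose, Arc (1.15 ± 0.16; limma adjusted p = 0.00352) and Egr1 (0.43 ± 0.08; 0.0234), where 0.0756% of all probes were called. In the comparisons of genotypes and in the interaction 0 genes of the regulator and target lists were called.

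**Figure D4:**
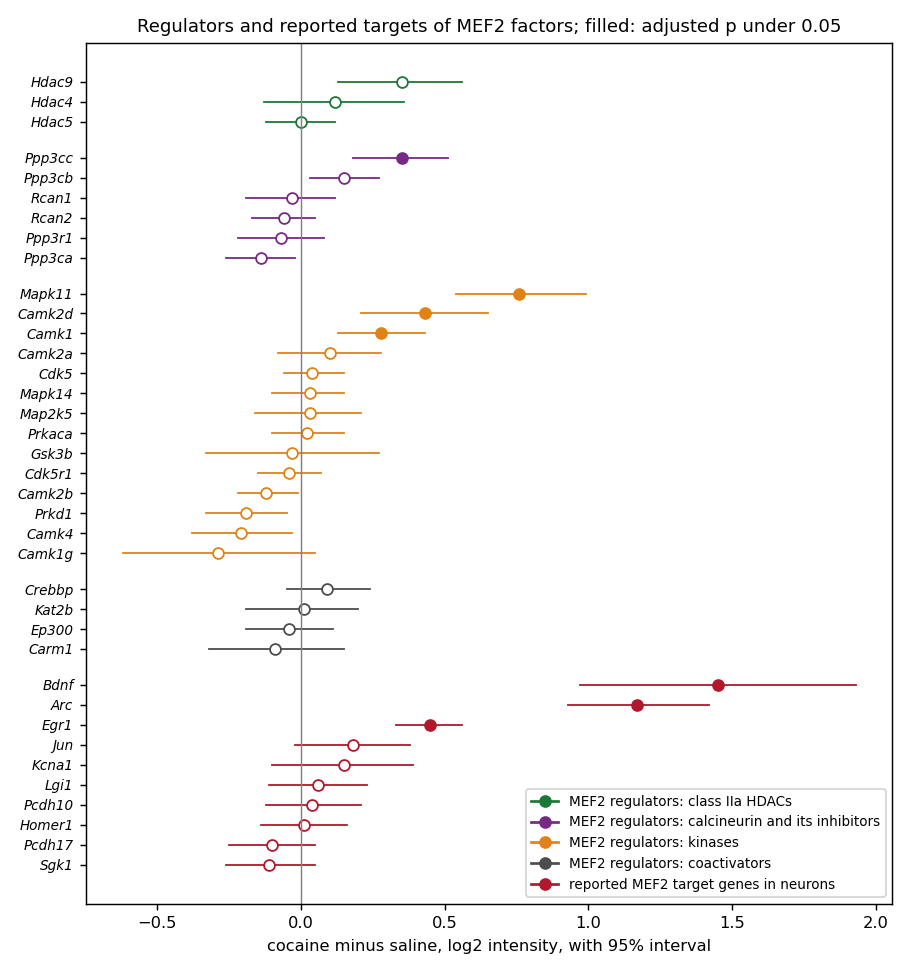
Cocaine minus saline in log2 intensity (horizontal axis), averaged over genotypes, with 95% intervals, for measured regulators and reported targets of MEF2 factors by list; filled points passed an adjusted p of 0.05. Bdnf (1.45), Arc (1.17) and Mapk11 (0.76) lie farthest to the right, and most genes lie near 0.

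Sex, which the sample labels give, was compared in the log2 values the authors processed, over the 3 Mef2c probes that have values there. The series lists its samples in the same order of groups as the array numbers, males first and females after. Taken in that order the levels of ILMN_2732465 lie close. Heterozygous saline males ran from 12.21 to 12.47 in the authors' values, beside 12.24 and 12.50 on arrays 1 and 6. Heterozygous saline females ran from 11.94 to 12.32, beside 12.17, 11.97 and 12.35 on arrays 14, 18 and 22. Read so, males are arrays 1 to 12 and females 13 to 24, and sex cannot be told apart from array order or from the number blocks. On ILMN_2732465 females minus males was 0.04 ± 0.09 averaged over the 4 groups (95% interval -0.15 to 0.23; limma adjusted p = 0.846), on ILMN_2887992 0.23 ± 0.12 (adjusted p = 0.326) and on ILMN_1214950 0.40 ± 0.18 (adjusted p = 0.237). So 0 of 3 were called, beside 1.40% of the 16253 probes with values, and 1 had an unadjusted p under 0.05, as had 2965 of those probes. The 228 calls behind that share ran from 26, without replicate 1 of the heterozygous saline group, to 299, without replicate 5 of the wild-type cocaine group, when 1 animal was left out. The cocaine response of females minus that of males was 0.05 ± 0.18, -0.01 ± 0.25 and 0.05 ± 0.35 on the same probes, with 0% of probes called and 1068 at an unadjusted p under 0.05.

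**Figure D5:**
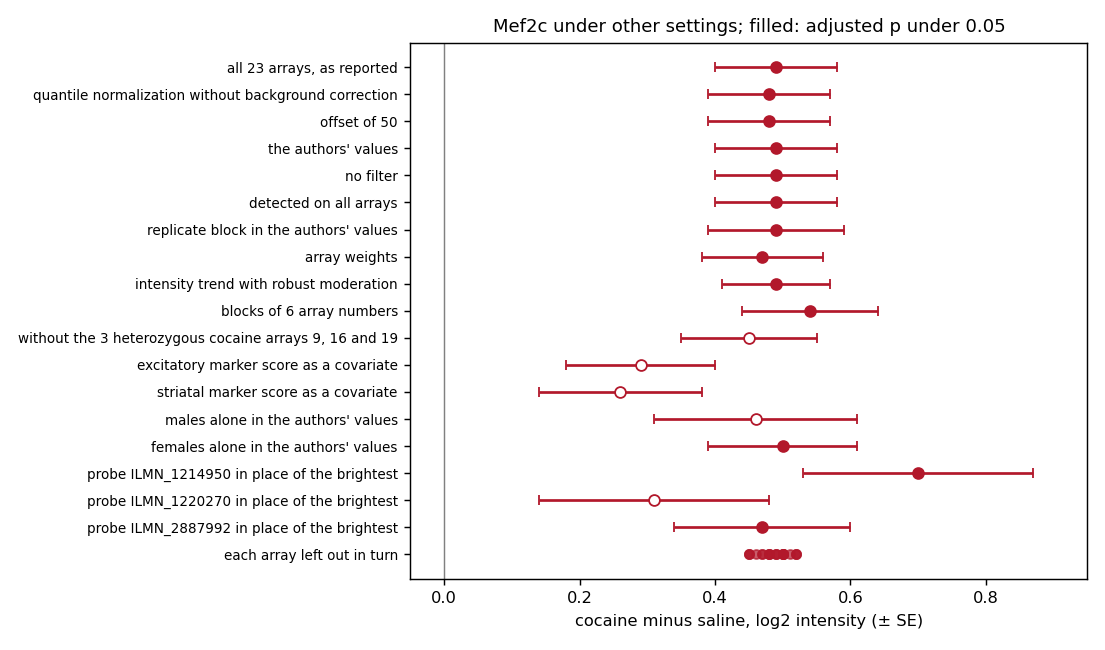
Cocaine minus saline in log2 intensity (horizontal axis, ± SE) of Mef2c averaged over genotypes under each processing setting, with the 23 fits that each leave out 1 array in the bottom row; filled points passed an adjusted p of 0.05. The value for ILMN_2732465 stays between 0.26 and 0.54, lowest with a marker score as a covariate, and the points for the other 3 probes, from the fit to all 23 arrays, lie at 0.31 to 0.70.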

How the data were processed

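The deposited table of raw values holds a non-normalized intensity and a detection p-value for each probe and array, per the file headers. Between 24.9% and 30.3% of the intensities on an array are below 0, so a background was already taken off in the deposited intensities, with software not given in the sources used here. The authors' processed log2 values cover 16253 probes and were taken as quantile normalized, since values of equal rank differ by at most 0.00108 between arrays. Array columns of the raw table name genotype, injection and a number but no animal, so sex and replicate number were used only with the processed values.

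The function neqc (limma 3.58.1, R 4.3.3) corrected the raw intensities for background, with an offset of 16 and negative-control moments inferred from the detection p-values, and quantile normalized them. A probe was tested where its detection p fell below 0.01 on 5 or more arrays. Genes came from the array's annotation, which gives a single gene for 34885 probes, several for 18 and none for 10378, with symbols updated through RefSeq gene IDs. A gene outside the family was represented by its brightest tested probe. A model of 4 groups was fitted to all 23 arrays with 19 residual degrees of freedom, with two-sided moderated tests and Benjamini-Hochberg adjustment over all probes, and a probe was called at an adjusted p under 0.05. The method was tested on simulated data. All 4 members and the genes passing in each fixed list were named (up to 4 with the smallest p), with the 5 genes closest in correlation. The members, lists and alternatives were chosen with earlier results of these data known. Whether equal replicate numbers pair animals was checked in the processed values. Deviations of 33 same-numbered pairs correlated with a median r of 0.08, and 13 were over 0.1. For 165 pairs of different number the median was -0.02, and 32 were over 0.1. Same-numbered pairs were thus somewhat more alike. Most of them also share sex, since the low numbers of each group are males and the high ones females. A pairing therefore cannot be told apart from sex here, and whether the numbers pair animals was not settled. The raw columns carry no replicate number, so it entered only a fit to the processed values. Start windows are from RefSeq (GRCm38.p6), permutations numbered 100000 and matplotlib drew the plots.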

Additional observations from a re-analysis of the deposited data

How the results depend on the processing

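Precision is limited by the number of arrays and, for ILMN_1220270 and ILMN_1214950, by signal near background. Values are log2 differences. The cocaine rise of Mef2c probe ILMN_2732465 averaged over genotypes passed under 10 of 14 alternatives on the same probe (0.26 to 0.54; adjusted p from 7.2e-04 to 1) and in all 23 fits that leave out 1 array (0.45 to 0.52). It did not pass without arrays 9, 16 and 19 (0.45), with the excitatory (0.29) or striatal score (0.26), in males alone (0.46) or on ILMN_1220270 (0.31). In heterozygotes (0.62 to 0.75 over the 23 fits, all passing) it did not pass without the 3 arrays (0.62), with the excitatory (0.42) or striatal score (0.38), in males (0.58) or females (0.77) alone, or on ILMN_1220270 (0.54) or ILMN_2887992 (0.59). In wild type it passed in none of the 23 fits (0.21 to 0.34), nor with the excitatory (0.16) or striatal score (0.15). The cause was not tested; the fits within a sex hold fewer arrays.

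Within blocks of array numbers (1 to 6, 7 to 12, 13 to 18 and 19 to 24) the cocaine difference was 0.39, 0.74, 0.76 and 0.30 with the genotypes pooled and 0.00, 0.67, 0.51 and 0.08 in wild type. The only saline array in block 7 to 12 is wild-type array 7. Both values there rest on it, and 0.74 mixes genotype with injection. In heterozygotes the cocaine difference was 0.79, 1.01 and 0.51 in the 3 blocks other than 7 to 12, which holds no heterozygous saline array. Heterozygotes minus wild type was 0.79, 0.15, 0.08 and 0.27 after cocaine, and 0.00, -0.41 and -0.16 after saline, again without 7 to 12. With the injections pooled the genotype difference was 0.27, 0.37, -0.25 and 0.13. The 0.37 sets 2 heterozygous cocaine arrays against 3 wild-type arrays, 2 after cocaine and 1 after saline, so it mixes injection with genotype.

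The uncalled genotype differences changed sign. For ILMN_2732465 this held after saline in males (0.12), and averaged over injections with the striatal score (-0.03), in females (-0.06) and on ILMN_1214950 and ILMN_1220270 (-0.11 each). For ILMN_1214950 it held after cocaine without the 3 arrays (-0.16), with the striatal score (-0.28) and in females (-0.04), and averaged over injections in males (0.09). For ILMN_1220270 it held after cocaine without the 3 arrays (-0.21) and with the striatal score (-0.29). For ILMN_2887992 it held after cocaine with the striatal score (-0.11), after saline in males (0.10), and averaged over injections with number blocks (-0.01), without the 3 arrays (-0.05), with the excitatory (-0.02) or striatal score (-0.12) and in females (-0.12). The cocaine difference of ILMN_1220270 changed sign with the striatal score in heterozygotes (-0.12), in wild type (-0.20) and averaged (-0.16), and with the excitatory score in wild type (-0.02).

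Leaving out 1 array or animal gave 0.04 to 0.11 for the genotype difference of ILMN_2732465, -0.04 to 0.06 for that of ILMN_2887992, and -0.08 to 0.19 for the cocaine difference of ILMN_1220270 in wild type. The sex difference in the cocaine response then ran from -0.03 to 0.14 for ILMN_2732465, from -0.14 to 0.13 for ILMN_2887992 and from -0.14 to 0.20 for ILMN_1214950. Over all probes 716 were called for cocaine averaged over genotypes, 386 to 1118 leaving out 1 array and 3 to 1003 under other settings, the 3 being with the striatal score. With the replicate number as a block in the authors' values the cocaine difference of ILMN_2732465 was 0.49, passed as without the block, and 775 probes were called against 691. Of 23 samples 7 correlated best with one of their own number.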
